A study of Mus musculus with 24 samples.

Results

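The genes described here were the 7 Fgf ligands Fgf3, Fgf4, Fgf5, Fgf8, Fgf15, Fgf17 and Fgf18, taken by gene name from a count table of 35591 genes. Their RNA was followed while male mESC lines (embryonic stem cells of the mouse) were turned into neuromesodermal progenitors (NMPs), which give rise to spinal cord and trunk mesoderm. The cross of a Castaneus mother with wild-type Smchd1 and a C57BL/6 father of genotype Smchd1 del/fl with an MMTV-Cre transgene gave 3 Smchd1 wt lines, which kept a floxed allele from the father, and 3 Smchd1 het lines, which received its deleted allele. Each line was sampled on day 0, day 2, day 2.5 and day 3, which gave 24 libraries in 8 groups of 3. The lines were derived and grown in 2i with LIF, a medium that holds the Wnt activator CHIR99021 and the Mek inhibitor PD0325901, and were moved stepwise towards DMEM with LIF before differentiation. Later cells were kept in N2B27 medium with recombinant basic FGF (the FGF2 protein), and CHIR99021 was added again on day 2, so it was in the medium before the day 2.5 and day 3 samples of both genotypes. A line is a culture from 1 blastocyst, and its 4 libraries are repeated measures of that culture. The comparison of het with wt asks whether the loss of the embryo's own paternal copy of Smchd1, a chromatin protein of gene silencing, alters expression when the oocyte supplied the protein.

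Fgf ligands are secreted proteins that bind Fgf receptors, which are receptor tyrosine kinases, and signal through the Ras and Erk kinases. In the early mouse embryo, Fgf4 from pluripotent cells drives their exit from the naive state, Fgf5 marks the epiblast that follows, and Fgf8, Fgf17 and Fgf3 are made in the primitive streak and tailbud, where Fgf signalling acts with Wnt to keep NMPs. Fgf8, Fgf17 and Fgf18 form 1 subfamily of closely related ligands, while Fgf15 is a hormone-like ligand best known from the intestine, from which it signals to the liver to repress bile acid synthesis.

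Fgf3, Fgf4 and Fgf15 lie beside each other on chromosome 7, all on the plus strand of the GRCm38 build. Fgf3 (ENSMUSG00000031074) runs from 144838083 to 144844436, Fgf4 (ENSMUSG00000050917) from 144847367 to 144865243 and Fgf15 (ENSMUSG00000031073) from 144896531 to 144900953. Fgf5 (ENSMUSG00000029337) is on chromosome 5 from 98254184 to 98277030, on the plus strand. Fgf8 (ENSMUSG00000025219) is on chromosome 19 from 45736798 to 45742915, Fgf17 (ENSMUSG00000022101) on chromosome 14 from 70636203 to 70642268 and Fgf18 (ENSMUSG00000057967) on chromosome 11 from 33117430 to 33147400, all on the minus strand. All 7 are protein coding. In each of them 100.0% of the 75-base stretches of the longest transcript occurred on the same strand of no other gene's transcripts. The exons of Fgf15 overlap those of the antisense genes Gm26793 and Gm39119, and since the kit's strandedness is not given for each library, reads from these genes cannot be told apart there.

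Because Fgf4 carried most of the ligand RNA until day 2, Fgf5 fell after day 2 and Fgf3 had the lowest unadjusted p between the genotypes, the bases just before their RefSeq starts are printed here, 5′ to 3′ on the plus strand of GRCm38.p6. For Fgf4 these are chr7:144861136-144861385, for Fgf5 chr5:98253934-98254183 and for Fgf3 chr7:144838362-144838594. The windows of Fgf4 and Fgf3 are intronic in a longer GENCODE transcript of the same gene that starts upstream. That of Fgf3 was cut short where an annotated exon begins. That of Fgf5 lies upstream of the gene. The table of RefSeq windows used here held 4 of the 7 genes, the 3 printed and Fgf18. Capitals mark matches to the GC box GGGCGG (Fgf4 and Fgf5) or to the Tcf/Lef motif CTTTGAA (Fgf3), searched on both strands.
Fgf4: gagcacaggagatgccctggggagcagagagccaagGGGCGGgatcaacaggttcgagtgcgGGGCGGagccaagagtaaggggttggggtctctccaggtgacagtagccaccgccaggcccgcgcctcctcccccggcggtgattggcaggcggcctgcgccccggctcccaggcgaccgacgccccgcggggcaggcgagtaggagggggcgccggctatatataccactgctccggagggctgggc
Fgf5: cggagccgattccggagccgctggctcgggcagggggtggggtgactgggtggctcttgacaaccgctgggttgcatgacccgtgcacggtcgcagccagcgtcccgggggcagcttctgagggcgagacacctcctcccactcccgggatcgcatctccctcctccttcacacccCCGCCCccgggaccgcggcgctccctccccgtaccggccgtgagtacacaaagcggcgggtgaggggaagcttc
Fgf3: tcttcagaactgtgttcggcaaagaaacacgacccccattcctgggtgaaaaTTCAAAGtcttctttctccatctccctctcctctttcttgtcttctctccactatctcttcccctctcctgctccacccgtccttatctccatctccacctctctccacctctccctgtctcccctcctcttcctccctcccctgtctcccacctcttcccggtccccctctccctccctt

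In the 250 bases before the start, Fgf4 held 2 GC boxes and Fgf5 and Fgf18 held 1 each, while 32.7% of all 32851 such windows held at least 1. Fgf3 held 1 match to CTTTGAA, which is in 4.46% of all windows and lies on the other strand as TTCAAAG, 192 bases before the start. The 4 Tcf/Lef forms searched were CTTTGAA itself, the same with other last letters as CTTTGAT, the form written as CTTTGTA, and lastly the form CTTTGTT. At least 1 of them was in 14.8% of all windows, and Fgf4, Fgf5 and Fgf18 had none of these letters in theirs. The exact letters TATAAA of the TATA box, found in 12.4% of all windows, were in none of the 4. Other forms of that box were not searched, and the printed Fgf4 window holds the letters tatatata near its end. The window of Fgf3 was 55.2% G and C with 4 CpG pairs, against 71.2% with 21 in Fgf4, 70.8% with 24 in Fgf5 and 77.2% with 37 in Fgf18.

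Library totals ranged from 7102655 to 20818018 counts, and the smallest was wt day 2.5 line 2. A floor of 3 counts was 0.412 CPM (read counts per 1000000 reads of a library's total, after scaling by TMM factors) in that library and 0.137 CPM in the deepest, which covers counting error only. Within groups, log2 CPM across genes correlated at 0.955 to 0.985 between lines. The deleted gene Smchd1 averaged 136 to 199.8 CPM in the wt groups and 90.02 to 119.97 CPM in the het groups. Wt line 1 stood apart on chromosome 8, where 799 genes lay at a median of 0.229 on the log2 scale above the other lines, which carries none of the 7 ligands but the receptor gene Fgfr1 and Fgf20. Markers of NMPs summed to 215 to 285 CPM at day 0 and to 538 to 981 CPM at day 3 over both genotypes. Sox2 averaged 239 CPM in wt stem cells, whereas Nkx1-2, which marks NMPs more narrowly, went from 0.0415 CPM at day 0 to 108 CPM at day 3 in wt and from 0.105 to 121 CPM in het. Markers of primitive and extraembryonic endoderm were also present, at 557 to 1982 CPM in sum at day 0 and 2053 to 5537 CPM at day 3, although Afp of that list was near 0 in each group. In bulk RNA, fewer cells of a type and less RNA per cell cannot be told apart.

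The ligand RNA was mainly Fgf4 until day 2, whereas Fgf8 had the largest share of it at day 3, and at day 2.5 in every het line and in wt line 1. Levels of different genes were compared as RPKM, the CPM divided by the length of the merged exons in kilobases. At day 0 the 7 ligands summed to 98.3 ± 4.75 RPKM in wt and 95.4 ± 2.32 RPKM in het (SD, n = 3), and at day 2 to 58.6 ± 3.39 and 61.4 ± 4.70 RPKM. The sum was smallest at day 2.5, at 13.2 ± 4.50 RPKM in wt and 13.2 ± 1.04 RPKM in het, and was 38.4 ± 9.81 and 36.04 ± 12.05 RPKM at day 3. Fgf4 made up 77.6% ± 2.73 of this sum in wt and 81.6% ± 1.12 in het at day 0, and 23.7% ± 4.17 and 20.96% ± 3.52 at day 3. Fgf8 made up 0.351% ± 0.477 and 0.177% ± 0.0770 at day 0, and 44.8% ± 1.36 and 49.5% ± 1.41 at day 3. At day 2.5 its share was 29.7% ± 13.5 in wt and 34.7% ± 5.30 in het, beside 23.2% ± 12.1 and 15.5% ± 2.78 for Fgf3. In wt this rested on line 1, where Fgf8 was at 8.34 and Fgf3 at 1.71 RPKM, since Fgf3 was above Fgf8 in line 2 (3.37 against 2.44 RPKM) and line 3 (3.05 against 2.22 RPKM).

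**Figure D1:**
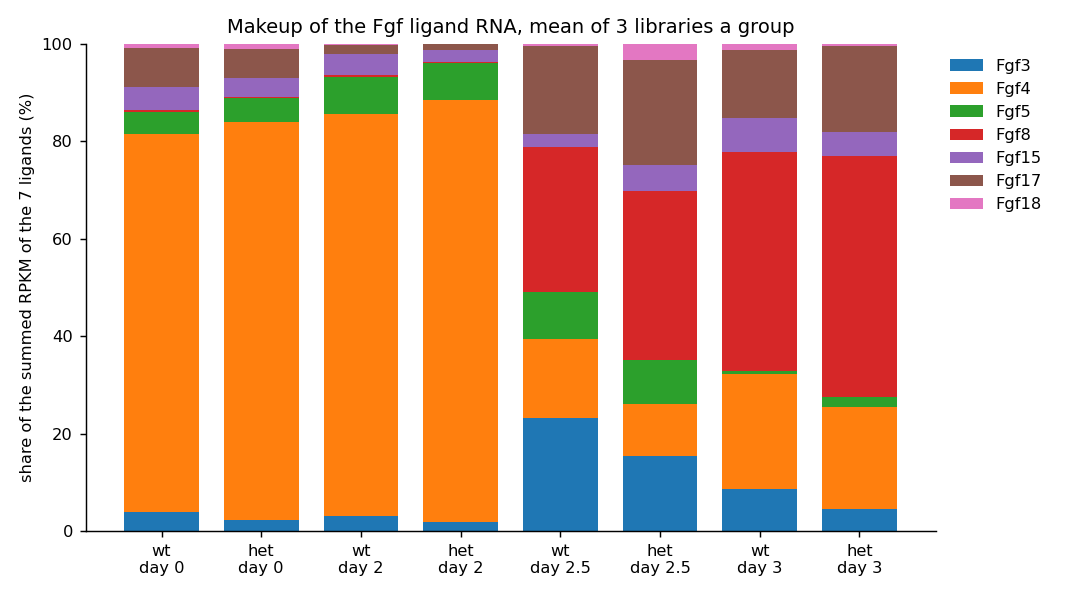
Stacked bars give the mean share (%, vertical axis) of each of the 7 Fgf ligands in their summed RPKM, with 3 libraries in each of the 8 groups on the horizontal axis. Fgf4 fills 77.6% to 86.7% of the bars of day 0 and day 2, and Fgf8 is the largest part on day 3. At day 2.5 its mean part in wt, 29.7%, is above the 23.2% of Fgf3 through 1 of the 3 lines.

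In wt at day 0 the order of levels was Fgf4 (76.4 ± 6.30 RPKM), Fgf17 (7.76 ± 2.01), Fgf15 (4.70 ± 0.750), Fgf5 (4.33 ± 0.617), Fgf3 (4.03 ± 0.940), Fgf18 (0.838 ± 0.136) and Fgf8 (0.330 ± 0.441 RPKM; SD, n = 3). Fgf15, Fgf5 and Fgf3 lay within 1 SD of each other. In wt at day 3 the order was Fgf8 (17.2 ± 4.28 RPKM), Fgf4 (9.11 ± 2.76), Fgf17 (5.47 ± 2.11), Fgf3 (3.23 ± 0.524), Fgf15 (2.74 ± 1.12), Fgf18 (0.430 ± 0.301) and Fgf5 (0.227 ± 0.163 RPKM). Fgf3 and Fgf15 were not apart by more than their spread, nor were Fgf18 and Fgf5. In het at day 3, Fgf8 (17.9 ± 6.15 RPKM) again led Fgf4 (7.57 ± 2.96) and Fgf17 (6.36 ± 1.83), and the last pair overlapped in spread.

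**Figure D2:**
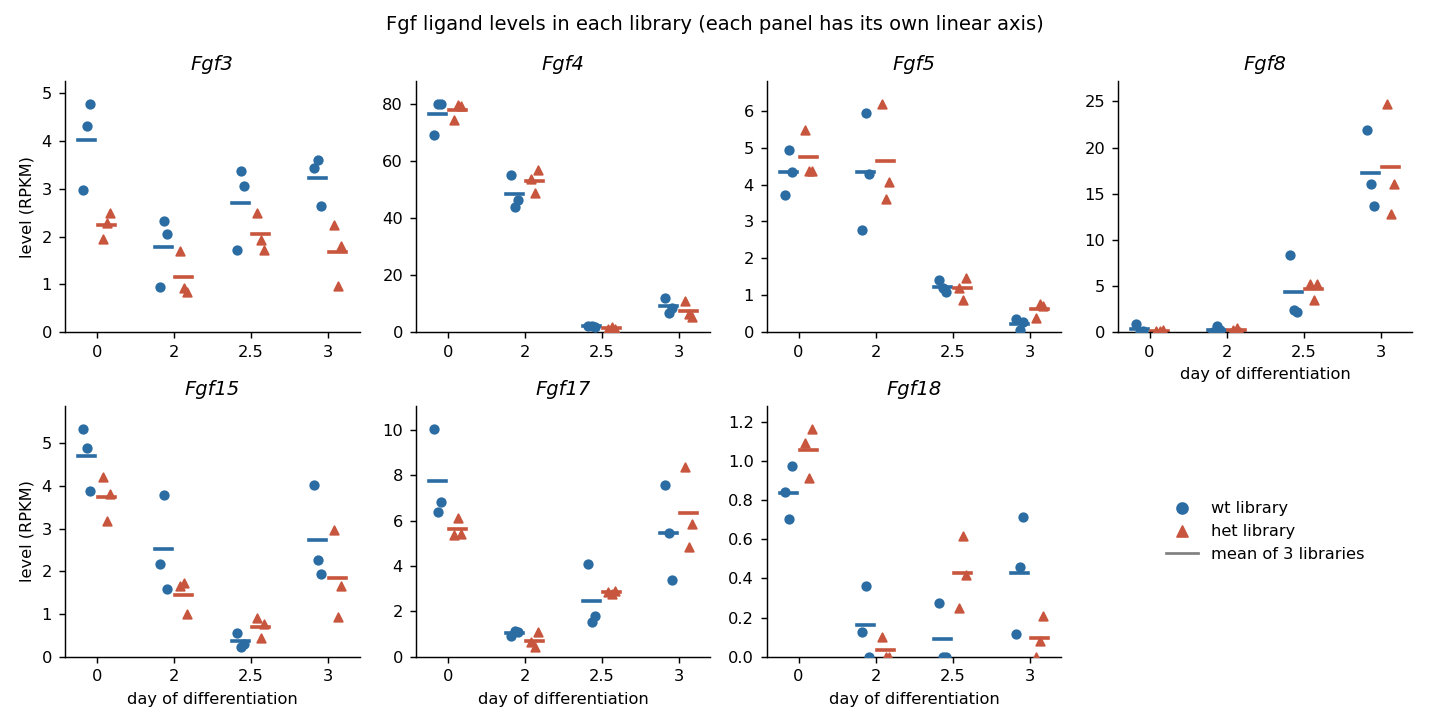
Each panel shows the level of 1 Fgf ligand (RPKM, vertical axis, linear and separate for each panel) in each of the 24 libraries against the day of differentiation, with circles for wt, triangles for het and bars for the mean of 3 libraries. Fgf4 drops from 48.4 to 2.01 RPKM in wt between day 2 and day 2.5 while Fgf8 goes from 0.272 to 4.33 RPKM.

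Fgf4, the ligand that pluripotent cells secrete, had the highest RPKM of the 7 until day 2. In wt lines 1 to 3 it was at 221, 255 and 256 CPM at day 0, 177, 139.8 and 148 CPM at day 2, 6.47, 6.87 and 5.93 CPM at day 2.5 and 38.6, 21.2 and 27.4 CPM at day 3. In het lines 1 to 3 it was at 238, 254 and 254 CPM, 172, 156 and 181 CPM, 3.09, 6.17 and 4.04 CPM and 34.9, 20.4 and 17.2 CPM on the same days. No line of either genotype overlapped between day 2 and day 2.5, nor between day 2.5 and day 3, while wt and het overlapped on each day. By the edgeR quasi-likelihood test with Benjamini-Hochberg adjustment, which is meant by every adjusted p here, with log2 fold changes given ± SE, Fgf4 fell from day 0 to day 2 by 0.65 ± 0.11 on the log2 scale in wt (adjusted p = 0.000363) and by 0.53 ± 0.07 in het (adjusted p = 8.17e-06). From day 2 to day 2.5 it fell by 4.59 ± 0.16 (adjusted p = 9.07e-10) in wt and by 5.27 ± 0.18 (adjusted p = 1.15e-10) in het, which was 24.1-fold and 38.5-fold. From day 2.5 to day 3 it rose by 2.18 ± 0.23 (adjusted p = 0.000610) in wt and by 2.41 ± 0.29 (adjusted p = 0.000229) in het, or 4.53-fold and 5.32-fold, in 3 of 3 lines of each genotype.

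Fgf5, the ligand of the post-implantation epiblast, overlapped between day 0 and day 2, and its values were lower in every line on each later day. Its wt values in lines 1 to 3 were 9.29, 12.4 and 10.8 CPM at day 0, 6.92, 14.9 and 10.7 CPM at day 2, 3.50, 3.02 and 2.70 CPM at day 2.5 and 0.916, 0.121 and 0.668 CPM at day 3. Its het values were 13.7, 10.9 and 10.9 CPM, 15.5, 9.05 and 10.2 CPM, 3.00, 2.20 and 3.70 CPM and 0.976, 1.88 and 1.78 CPM. Day 0 and day 2 overlapped in both genotypes, whereas each line was lower at day 2.5 than at day 2 and lower again at day 3. The log2 fold change from day 0 to day 2 was 0.01 in wt (95% interval -0.58 to 0.60) and -0.02 in het (-0.48 to 0.44), and was not called. Fgf5 fell from day 2 to day 2.5 by 1.80 ± 0.33 on the log2 scale in wt (adjusted p = 0.00147) and by 1.97 ± 0.28 in het (adjusted p = 7.82e-05). From day 2.5 to day 3 it fell by 2.40 ± 0.59 in wt (adjusted p = 0.0184), and the log2 fold change in het was -0.97 ± 0.35 (adjusted p = 0.0552), which was called with no filter beyond 1 count (-0.94, adjusted p = 0.0386). The wt call was lost without line 2, at -1.97 (adjusted p = 0.0998), whose day 3 library held 2 reads of Fgf5, and without line 3, at -2.60 (adjusted p = 0.0831).

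Fgf8, a ligand of the primitive streak and tailbud, was near the floor until day 2. Counts in wt lines 1 to 3 were 18, 0 and 3 at day 0, 0, 16 and 5 at day 2, 209, 24 and 51 at day 2.5 and 647, 357 and 304 at day 3, and those in het lines were 4, 2 and 5, 4, 10 and 0, 143, 89 and 144 and 650, 369 and 439. Every library of day 2.5 was above every library of day 2, and every library of day 3 above those of day 2.5. Fgf8 did not pass the filter on low counts in the comparison of day 2 with day 0. From day 2 to day 2.5 it rose by 4.03 ± 0.82 on the log2 scale in wt (adjusted p = 0.00288) and by 4.42 ± 0.61 in het (adjusted p = 5.25e-05). The size of this rise moved with single lines, to 2.51 without wt line 1, 5.79 without wt line 2, 5.74 without het line 2 and 3.77 without het line 3. It stayed called in each of these 4 fits. From day 2.5 to day 3 it rose by 1.93 ± 0.43 in wt (adjusted p = 0.0125) and by 1.91 ± 0.24 in het (adjusted p = 0.000296), or 3.80-fold and 3.75-fold. The wt rise to day 3 was not called without line 2, the line with the smallest library, at 1.73 (adjusted p = 0.149), and was 2.68 without line 1 (adjusted p = 4.01e-06). In the log2 RPKM values that the authors deposited for Fgf8, wt averaged 1.83 ± 1.08 at day 2.5 and 4.05 ± 0.377 at day 3, and het averaged 2.17 ± 0.341 and 4.10 ± 0.487 (SD, n = 3).

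Fgf17, a close relative of Fgf8, differed from it in being well above the floor in stem cells. In wt lines 1 to 3 it was at 17.0, 10.8 and 11.6 CPM at day 0, 1.52, 1.92 and 1.85 CPM at day 2, 6.90, 2.61 and 3.05 CPM at day 2.5 and 12.8, 9.20 and 5.71 CPM at day 3. In het lines it was at 9.06, 10.3 and 9.16 CPM, 1.09, 0.719 and 1.82 CPM, 4.86, 4.71 and 4.88 CPM and 14.2, 8.18 and 9.87 CPM. Day 2 was the low point of all 6 lines, with no overlap with day 0 or day 2.5. Fgf17 fell from day 0 to day 2 by 2.89 ± 0.31 on the log2 scale in wt (adjusted p = 6.18e-06) and by 2.96 ± 0.34 in het (adjusted p = 2.29e-06), which was 7.39-fold and 7.78-fold. From day 2 to day 2.5 it rose by 1.28 ± 0.45 in wt (adjusted p = 0.0475) and by 1.99 ± 0.41 in het (adjusted p = 0.00127). From day 2.5 to day 3 it rose by 1.12 ± 0.22 in het (adjusted p = 0.00317), and its log2 fold change in wt was 1.09 ± 0.40 (adjusted p = 0.0788). With the line as a replicate block, the wt step to day 2.5 was not called (1.15, adjusted p = 0.0808) and the wt step to day 3 was (1.13, adjusted p = 0.00374). The wt call to day 2.5 was also lost without line 1 (0.61, adjusted p = 0.438), without line 2 (1.57, adjusted p = 0.0862) or without line 3 (1.50, adjusted p = 0.0967), and the step to day 3 was called without line 1 (1.37, adjusted p = 0.0171), by the DESeq2 Wald test (1.12, adjusted p = 0.0338), with no filter beyond 1 count (1.08, adjusted p = 0.0113) and in the joint fit of all libraries (1.08, adjusted p = 0.0174).

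Fgf18, the third member of that subfamily, was at 14 to 23 counts in each day 0 library and at 0 to 14 counts in each later one. Its levels at day 0 were 0.995 ± 0.162 CPM (SD, n = 3) in wt and 1.25 ± 0.153 CPM in het. Counts in lines 1 to 3 at day 2 were 3, 8 and 0 in wt and 2, 0 and 0 in het, at day 2.5 they were 6, 0 and 0 in wt and 6, 14 and 10 in het, and at day 3 they were 3, 9 and 14 in wt and 0, 2 and 5 in het. It passed the filter in the steps from day 0 to day 2, in the het against wt comparisons of day 0 and of summed counts, and in 2 of the 3 interactions. Fgf18 fell from day 0 to day 2 in het (adjusted p = 0.00109), with 61 against 2 counts in sum, a ratio of 29.2 per total count with an exact 95% interval of 7.76 to 247. In wt the sums were 46 and 11 counts, a ratio of 5.11 (exact 95% interval 2.61 to 10.9), and the fitted log2 fold change of -2.34 was not called (adjusted p = 0.0919), with a range of -3.73 to -1.67 over the alternatives. Both reads of het day 2 came from line 1, and without it the fitted value was -7.28 (adjusted p = 0.00552), which against libraries at 0 depends on the prior count. These intervals cover counting error only. In the joint fit of all 24 libraries, Fgf18 was also called in het from day 2 to day 2.5 (3.43, adjusted p = 0.0458). It did not enter that step in the separate fit, and DESeq2 did not call it there (3.65, adjusted p = 0.0765).

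Fgf15 fell over the first steps and was higher again at day 3. In wt lines 1 to 3 it was at 16.3, 14.9 and 11.8 CPM at day 0, 6.63, 11.6 and 4.85 CPM at day 2, 1.72, 0.687 and 0.939 CPM at day 2.5 and 12.3, 6.96 and 5.89 CPM at day 3. In het lines it was at 12.8, 9.70 and 11.7 CPM, 5.04, 5.27 and 3.05 CPM, 2.80, 1.36 and 2.32 CPM and 9.04, 2.82 and 5.03 CPM. The day 2.5 values lay below those of every other day within each genotype. Fgf15 fell from day 0 to day 2 by 0.90 ± 0.30 on the log2 scale in wt (adjusted p = 0.0249) and by 1.34 ± 0.25 in het (adjusted p = 0.000287). It fell from day 2 to day 2.5 by 2.69 ± 0.45 in wt (adjusted p = 0.000853) and by 1.05 ± 0.39 in het (adjusted p = 0.0418), and rose from day 2.5 to day 3 by 2.81 ± 0.42 in wt (adjusted p = 0.00222) and by 1.34 ± 0.41 in het (adjusted p = 0.0280). Without line 2, the wt step to day 2.5 was -2.09 (adjusted p = 0.0313). The first wt step was not called without line 1 (-0.70, adjusted p = 0.137) or line 3 (-0.80, adjusted p = 0.115), and the last not without line 2 (2.74, adjusted p = 0.0739). In het, the step to day 2.5 was not called with the line as a replicate block (-1.05, adjusted p = 0.0630), with library totals alone (-0.97, adjusted p = 0.0558), without line 1 (-1.15, adjusted p = 0.122) or without line 2 (-0.66, adjusted p = 0.290), and the step to day 3 not without line 1 (1.05, adjusted p = 0.0983) or line 3 (1.49, adjusted p = 0.114).

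Fgf3, a ligand of the tailbud and the inner ear, was called in the first step alone. In wt lines 1 to 3 it was at 6.92, 10.1 and 11.1 CPM at day 0, 2.21, 5.44 and 4.80 CPM at day 2, 3.99, 7.83 and 7.10 CPM at day 2.5 and 8.02, 8.41 and 6.13 CPM at day 3. In het lines it was at 4.56, 5.30 and 5.80 CPM, 3.94, 2.16 and 1.95 CPM, 5.80, 4.50 and 3.99 CPM and 5.24, 2.26 and 4.19 CPM. Each line was lower at day 2 than at day 0 and higher at day 2.5 than at day 2. Day 2 and day 2.5 overlapped in wt, while in het day 2 (1.95 to 3.94 CPM) lay just below day 2.5 (3.99 to 5.80 CPM). Day 2.5 and day 3 overlapped in both genotypes. Fgf3 fell from day 0 to day 2 by 1.17 ± 0.35 on the log2 scale in wt (adjusted p = 0.0157) and by 0.94 ± 0.35 in het (adjusted p = 0.0321). The log2 fold change from day 2 to day 2.5 was 0.60 ± 0.39 in wt (adjusted p = 0.274) and 0.82 ± 0.36 in het (adjusted p = 0.0793), and from day 2.5 to day 3 it was 0.27 and -0.33 (adjusted p = 0.567 and 0.451). The first step was not called in wt without line 3 (-1.16, adjusted p = 0.122), nor in het without line 2 (-0.80, adjusted p = 0.150) or line 3 (-0.68, adjusted p = 0.188).

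Counted over the ligands, the step from day 0 to day 2 held 4 lower genes of 6 tested in wt, where 21.9% of all tested genes were lower and 22.4% higher, and 5 lower genes of 6 tested in het, where 28.1% were lower and 28.0% higher. The step to day 2.5 held 2 higher and 3 lower of 6 tested in each genotype, against 14.6% higher and 14.5% lower of all genes in wt and 21.8% and 22.9% in het. In the step to day 3, 3 were higher and 1 lower of 6 tested in wt, against 8.99% and 10.1% of all genes, and 4 were higher and 0 lower in het, against 13.8% and 16.0%. In that het step, 5 of the 6 had an unadjusted p under 0.05, as did 41.4% of all genes. The median log2 fold change of the 6 tested ligands was -1.03 in wt and -1.14 in het for the first step, -0.60 and -0.11 for the second, and 1.51 and 1.23 for the third, while the median of all genes was within 0.1 of 0 in each. Without wt line 3, 2 ligands were called in the first wt step, and without wt line 2, 1 was called in the last, where that fit called 29 of all genes in place of 2923.

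**Figure D3:**
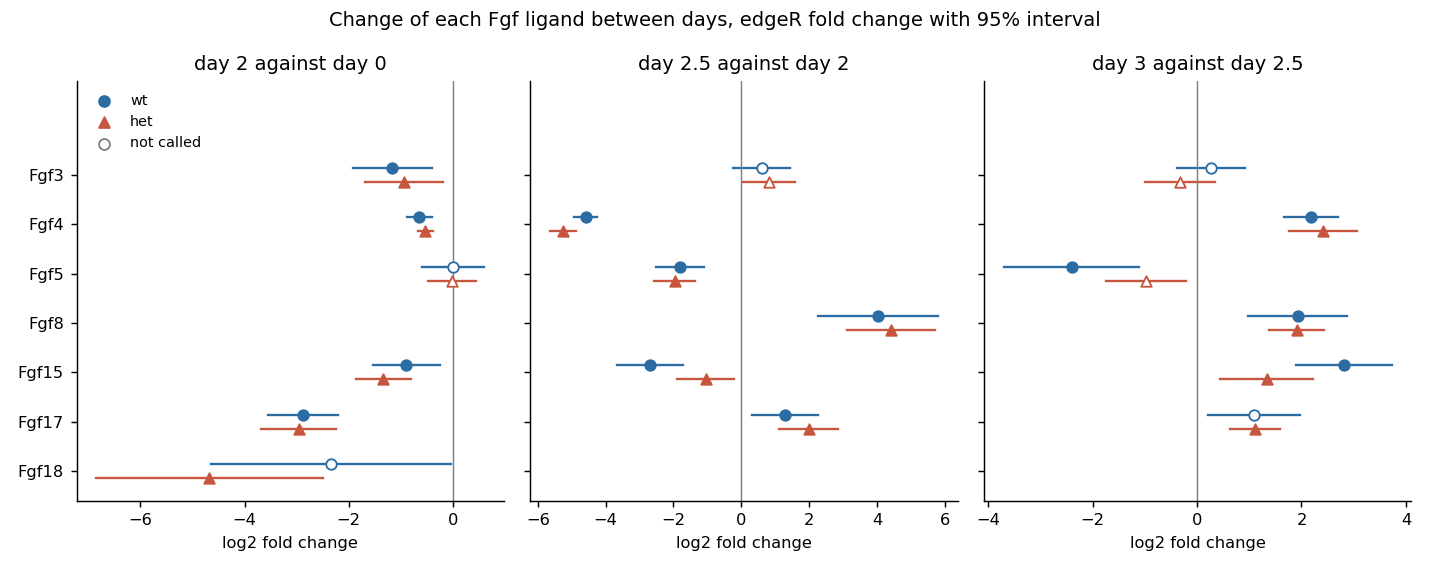
Points give the edgeR log2 fold change (horizontal axis) of each Fgf ligand for 3 steps between days, with circles for wt, triangles for het, lines for the 95% interval, filled points for called genes and no point where a gene was not tested. Fgf4 lies at -4.59 and -5.27 in the middle panel and at 2.18 and 2.41 in the right one, and Fgf8 lies to the right of 0 in both.

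Wt and het lines were then compared on each day. None of the tested ligands was called by edgeR on any day. On day 0, 2 of 6 tested ligands had an unadjusted p under 0.05, on day 2 it was 1 of 5, on day 2.5 it was 0 of 6 and on day 3 it was 2 of 6, and DESeq2 called 0 on each day. Of all tested genes, 10.9%, 10.2%, 5.27% and 9.13% had such a p on the 4 days. Fgf8 did not pass the filter on day 0 and day 2, nor Fgf18 on day 2, day 2.5 and day 3. The median log2 fold change of the tested ligands was -0.18, -0.55, 0.01 and -0.12 on the 4 days, with that of all genes within 0.1 of 0. Over all genes, edgeR called 0% of 15108 genes on day 0 (1649 at an unadjusted p under 0.05, 83 by DESeq2), 0.551% of 15414 on day 2, 0% of 15588 on day 2.5 (822 and 3) and 0.00638% of 15686 on day 3. Day 3 gave 107 genes by DESeq2 and day 2 gave 213. With the counts of each line summed over its 4 days, edgeR called 0.00544% of 18371 genes and 0 of the 7 ligands. An unadjusted p under 0.05 was found for 2 of them and for 9.05% of all genes, and DESeq2 called 134 genes and 1 ligand, Fgf3.

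The fitted log2 fold change of Fgf3 in het over wt was below 0 on all 4 days and was called on none of them. Each het line was below each wt line on day 0 (4.56 to 5.80 against 6.92 to 11.1 CPM) and on day 3 (2.26 to 5.24 against 6.13 to 8.41 CPM), while the groups overlapped on day 2 and day 2.5. The share of all genes whose lines separate in this way was not counted, here or for Fgf17 and Fgf5 below. No weight can thus be put on the separation itself. The log2 fold change of Fgf3 was -0.86 ± 0.24 on day 0 (adjusted p = 0.334), -0.64 ± 0.45 on day 2 (adjusted p = 0.691), -0.38 ± 0.30 on day 2.5 (adjusted p = 0.917) and -0.97 ± 0.30 on day 3 (adjusted p = 0.401) by edgeR. With counts summed over days it was -0.71 by edgeR (SE 0.18, 95% interval -1.11 to -0.31, adjusted p = 0.365). The same comparison was called by the DESeq2 Wald test (-0.71, adjusted p = 0.0407) and by edgeR without wt line 1 (-0.85, adjusted p = 0.0226). Wt line 1 had the lowest Fgf3 of the wt lines on day 0, day 2 and day 2.5 (6.92, 2.21 and 3.99 CPM), so leaving it out raised the wt level. It is also the line with raised genes on chromosome 8, which does not carry Fgf3. The fit without it was 1 of 6 fits that each left out a line, and the others gave adjusted p of 0.329 to 0.9997.

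The endoderm markers also differed between the genotypes, with calls on day 2. Their summed level was 1084 to 1982 CPM in wt and 557 to 865 CPM in het on day 0, 3814 to 7934 and 2319 to 3231 CPM on day 2, 2950 to 7795 and 3027 to 4599 CPM on day 2.5, and 2735 to 5537 and 2053 to 3436 CPM on day 3. The ranges did not overlap on day 0 and day 2. By edgeR, 7 of the 9 tested markers were lower in het on day 2, and 8 of 9 had an unadjusted p under 0.05 on day 0 with 0 called by edgeR or DESeq2. Gata6, a transcription factor of that lineage, averaged 15.7 CPM in wt and 9.48 CPM in het on day 0. Trophoblast markers summed to 33.2 to 47.6 CPM in wt and 19.1 to 26.03 CPM in het on day 2, with 1 of 4 tested called lower. Their part in the Fgf3 and Fgf15 values was not tested.

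**Figure D4:**
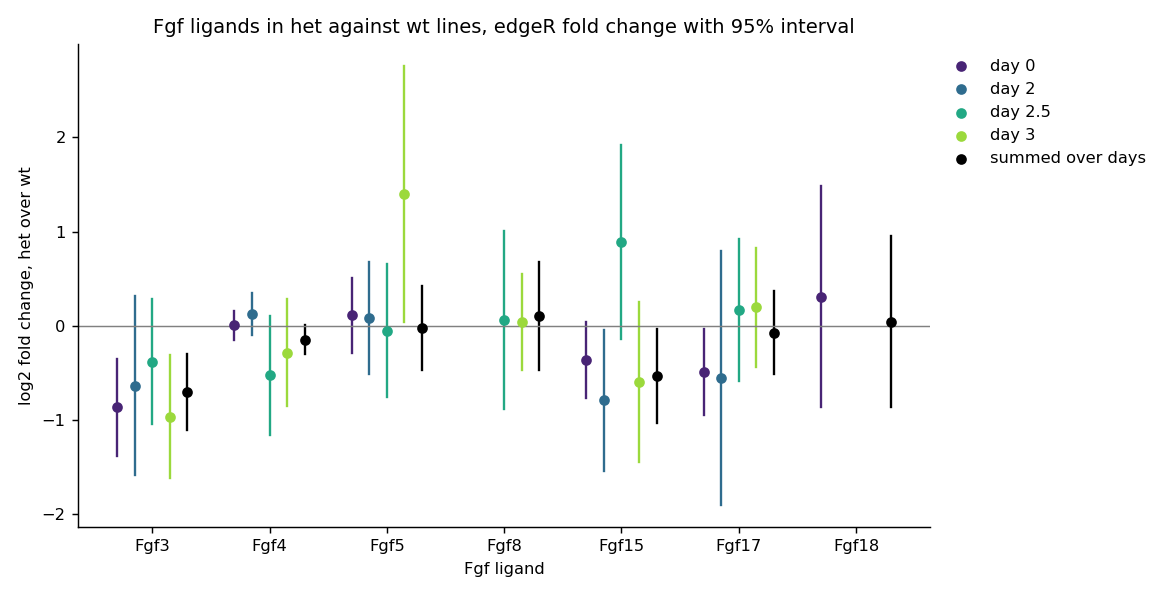
Points give the edgeR log2 fold change of het over wt (vertical axis) for each Fgf ligand (horizontal axis) on each day and for counts summed over days, with lines for the 95% interval and no point where a gene was not tested. Fgf3 is below 0 on all 4 days, from -0.97 to -0.38, and in the summed counts, which hold those days. The days are repeated measures of the same lines. Fgf8 is within 0.11 of 0 in each of its 3 comparisons.

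None of the other ligands was called by edgeR between genotypes. Fgf4 had log2 fold changes of 0.00 (95% interval -0.15 to 0.16) on day 0 and 0.12 (-0.10 to 0.35) on day 2, and of -0.53 (-1.16 to 0.10) and -0.29 (-0.85 to 0.28) on day 2.5 and day 3. Fgf8 had 0.06 (-0.88 to 1.01) on day 2.5 and 0.04 (-0.47 to 0.55) on day 3. For Fgf17 each het line lay below every wt line on day 0, at 9.06 to 10.3 against 10.8 to 17.0 CPM (-0.49, SE 0.21, adjusted p = 0.430), and overlapped on the other days. Fgf15 had -0.36 on day 0, -0.79 ± 0.35 on day 2 (adjusted p = 0.453), 0.89 on day 2.5 and -0.60 on day 3, with overlap on each day. For Fgf5 each het line lay above every wt line on day 3, at 0.976 to 1.88 against 0.121 to 0.916 CPM (1.40, SE 0.62, adjusted p = 0.536), and its log2 fold change was within 0.11 of 0 on the other days. Fgf18 had 0.31 on day 0 (95% interval -0.87 to 1.49) and 0.04 on summed counts.

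Whether a step differed between the genotypes was tested as an interaction. By edgeR 0 of the tested ligands were called in any of the 3 steps, with 0, 2 and 3 at an unadjusted p under 0.05, and 0% of 16387, 0% of 16569 and 0% of 16486 genes were. Unadjusted p under 0.05 was found for 1034, 850 and 635 of these genes, and DESeq2 called 10, 0 and 0 of them and 0 ligands. The interaction of Fgf15, as the het minus the wt log2 fold change, was 1.65 ± 0.59 at the step to day 2.5 (adjusted p = 0.952) and -1.46 ± 0.62 at the step to day 3 (adjusted p = 0.999). That of Fgf4 was -0.67 ± 0.25 at the step to day 2.5 (adjusted p = 0.952). Fgf5 and Fgf18 had interactions of 1.45 ± 0.67 and -3.97 ± 1.58 at the step to day 3, both with an adjusted p of 0.999 by edgeR, and Fgf18 rested on at most 14 counts a library there. Its value ranged from -8.76 to -2.77 over the alternatives, the former without wt line 1.

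Around the 3 linked ligands on chromosome 7, the genes from Ano1 to Ccnd1 were followed as well. Ano1, a chloride channel at the far end, fell with Fgf3 and Fgf4 from day 0 to day 2, by 2.59 on the log2 scale in wt (adjusted p = 0.00125) and by 3.04 in het (adjusted p = 0.000563). Ccnd1, which encodes the cell cycle protein cyclin D1, fell by 0.89 (adjusted p = 1.05e-05) and by 0.77 (adjusted p = 6.78e-08) in that step, and had log2 fold changes of 0.31 and 0.17 (adjusted p = 0.131 in both) in the next, in which Fgf4 fell. LTO1, which lies beside Ccnd1, fell by 0.64 in wt and by 0.79 in het at the first step (adjusted p = 0.00212 and 7.49e-05), and rose by 0.53 from day 2 to day 2.5 in het (adjusted p = 0.00485). Gm26793, which overlaps Fgf15 on the other strand, fell by 3.11 from day 2 to day 2.5 in wt (adjusted p = 0.0226) and rose by 3.27 to day 3 (adjusted p = 0.0201), with 0 to 6 counts in each wt library of day 2.5. In het its 2 values were -1.13 and 1.24 (adjusted p = 0.254 and 0.165). Bc1, a short noncoding RNA beside Fgf15, was lower in het than in wt on day 2, at 162 to 245 against 605 to 1122 counts (log2 fold change -1.59, adjusted p = 0.00824). From day 0 to day 2 it rose by 1.13 in wt (adjusted p = 0.00144) and fell by 0.55 in het (adjusted p = 0.0297), and in het it then rose by 2.70 to day 2.5 (adjusted p = 0.000457) and fell by 1.96 to day 3 (adjusted p = 0.0115). The het counts of Bc1 at day 2.5 were 3572, 1063 and 552 in lines 1 to 3, so line 1 weighs on the size of both later steps. The interaction of Bc1 at the first step was -1.66 and was not called by edgeR (adjusted p = 0.288). Gm44930, Gm10152, Gm44929 and Gm34964 had 0 counts in all 24 libraries, and Gm39119 had 0 to 12.

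The other 15 Fgf family genes were mostly near the floor, with 3 to 8 of them at a mean of 10 or more counts in a group and 14.1 to 30.2 CPM in sum. In wt, Fgf11, an intracellular Fgf homologue that is not secreted, rose by 4.20 on the log2 scale from day 0 to day 2 and fell by 2.01 to day 2.5, and in het it rose by 3.57, fell by 2.29 and rose by 1.45. Fgf10, a ligand of mesenchyme, fell from day 0 to day 2 by 1.63 in wt and by 1.85 in het, and by 1.51 from day 2.5 to day 3 in het. In het, 4 of the 6 tested were higher and 1 lower at day 2, against 28.0% and 28.1% of all genes, the other three higher ones being Fgf14 (4.07) and Fgf13 (0.70), which like Fgf11 are intracellular, and the hormone-like ligand Fgf21 (2.94). At day 2.5 het Fgf14 and Fgf21 fell by 2.07 and by 2.04, and Fgf2, whose protein was also supplied in the medium, rose by 1.81. At day 2, Fgf2 averaged 3.23 ± 0.432 CPM (SD, n = 3) in wt lines against 1.16 ± 0.549 CPM in het lines (log2 fold change of -1.48, adjusted p = 0.306). At day 2.5 the means were 2.49 and 4.12 CPM (log2 fold change of 0.66, adjusted p = 0.908), and at day 0 (2.10 and 2.16 CPM) and day 3 (2.76 and 2.95 CPM) they were closer than their spread.

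Of the receptors, Fgfr1, the main one of the epiblast, averaged 75.5 to 111 CPM in the 8 groups. It lies on chromosome 8. Wt line 1 had the highest wt value on each day, 95.8, 102, 159 and 123 CPM, against 64.1 to 92.3 CPM in the other wt lines. Fgfr2, the receptor that binds Fgf3 and Fgf10 in epithelia, fell from day 0 to day 2 by 1.42 on the log2 scale in wt and by 1.60 in het. Fgfr3 fell from day 2 to day 2.5 by 2.96 in wt and by 2.00 in het, and was 1 of the 6 tested receptor genes called in that wt step. Fgfr4 rose from day 0 to day 2 by 0.81 in wt and by 0.92 in het. In het, Fgfrl1, which lacks the kinase domain, rose by 0.95, fell by 0.70 and rose by 0.66 over the 3 steps, and Klb, the co-receptor for Fgf15, fell by 1.36 and then rose by 1.17. Fgfr1 also rose, by 0.41, in the first het step. Of 6 receptor genes tested, 1 rose and 1 fell in the first wt step and 0 in the last, where 1 had an unadjusted p under 0.05 by edgeR and DESeq2 called 0. Of the 7 tested in the first het step, 3 rose and 2 fell. Between genotypes edgeR and DESeq2 called 0 receptor genes on any day, with 1 to 3 at an unadjusted p under 0.05. Fgfr3 had a log2 fold change of het over wt of -0.59 on day 0 (adjusted p = 0.334) and -0.72 on day 2 (adjusted p = 0.205), and of 0.26 on day 2.5 (adjusted p = 0.940) and -0.10 on day 3 (adjusted p = 0.951). Fgfr4 averaged lower in het on each day and was called on none. Its means in wt and het were 4.82 and 2.95 CPM on day 0 and 8.41 and 5.53 CPM on day 2. They were 11.6 and 6.95 CPM on day 2.5 and 7.84 and 5.19 CPM on day 3, with lines that overlapped on both days.

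The 18 transducers from receptor to Erk passed the filter throughout. As a background for their counts and those of the receptor and feedback genes, the shares of all tested genes that rose and fell were 22.4% and 21.9% in wt and 28.0% and 28.1% in het in the first step. They were 14.6% and 14.5% in wt and 21.8% and 22.9% in het in the second, and 8.99% and 10.1% in wt and 13.8% and 16.0% in het in the third. In the first step 6 rose and 4 fell in each genotype, led by Sos2, an activator of Ras (1.37 in wt, 1.27 in het), Shc1, an adaptor (1.03 and 1.32), and Mapk3, which encodes Erk1 (0.93 and 1.00), and by the fall of Map2k2, which encodes Mek2 (-0.80 and -0.63). In the step to day 2.5, 2 rose and 8 fell in wt and 2 rose and 10 fell in het. Braf (-1.39 and -1.28) and Shc1 (-1.21 and -1.47) were among those that fell, while Map2k2 (0.64 and 0.48) and the phosphatase gene Ptpn11 (0.49 and 0.46) rose. In the step to day 3, 5 rose and 2 fell in wt and 6 rose and 2 fell in het, with Map2k2 (-0.76 and -0.40) and Hras (-0.47 and -0.45) lower and Braf (0.61 and 0.42) and Sos2 (0.56 and 0.62) higher.

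The 17 feedback and target genes of the pathway moved in both directions at each step. From day 0 to day 2, 6 rose and 4 fell in wt and 8 rose and 4 fell in het. Ier3 (2.33 in wt, 2.28 in het), an immediate early gene, Flrt3 (1.48 and 1.15), a membrane protein that binds Fgf receptors, and Spred1 (1.16 and 1.14), an inhibitor of Ras, were among those that rose. Myc (-2.19 and -1.75), the Ets factor gene Etv5 (-1.21 and -0.96) and the feedback inhibitor gene Spry4 (-0.96 and -0.83) fell most. From day 2 to day 2.5, in which Fgf4 fell and Fgf8 rose, 6 rose and 4 fell in wt and 6 rose and 6 fell in het. Egr1 (1.87 and 2.10), an immediate early gene of Erk, Etv4 (1.61 and 1.26) and Il17rd (1.05 and 0.67), an inhibitor of the receptor, rose in both, whereas Ier3 (-2.35 and -1.89), Spry1 (-1.23 and -1.46) and Etv1 (-1.24 and -1.12) fell. From day 2.5 to day 3, 1 rose and 7 fell in wt and 3 rose and 7 fell in het, with Egr1 (-1.79 and -1.55), Myc (-1.23 in both) and Spry4 (-1.03 and -1.04) lower and the phosphatase gene Dusp4 (0.87 and 1.06) higher.

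**Figure D5:**
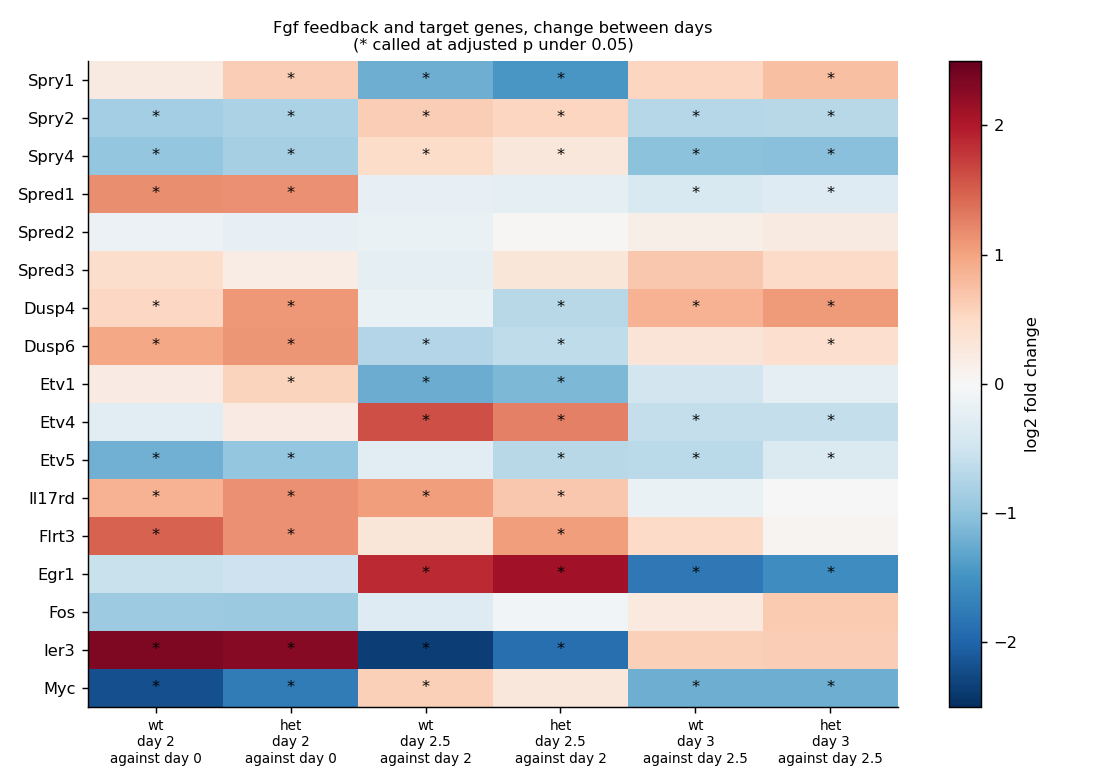
Colours give the edgeR log2 fold change (colour bar) of the 17 Fgf feedback and target genes (vertical axis) for each step between days in wt and het (horizontal axis), with a star for called genes. Egr1 and Etv4 are red at the step to day 2.5 and blue at the step to day 3 in both genotypes, and Ier3 is red at the first step and blue at the second.

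Between genotypes, Flrt3 was the feedback gene called by edgeR, lower in het on day 2 by a log2 fold change of -0.96 ± 0.18 (adjusted p = 0.0192). On that day 7 of the 17 had an unadjusted p under 0.05 and DESeq2 called 2. On the other days edgeR called 0, with 3 to 7 at an unadjusted p under 0.05, and DESeq2 called 1 on day 3 and 0 on day 0 and day 2.5. On the days after day 0, the fitted differences over the whole list lay mostly on the other side of 0. On day 0, 8 of the 17 were above 0 and 9 below (median -0.0003). On day 2 it was 12 and 5 (median 0.21), and on day 2.5 it was 12 and 5 (median 0.14). On day 3 it was 13 and 4 (median 0.21), and on summed counts 13 and 4 (median 0.10). The median of all genes was within 0.1 of 0 in each. The days are repeated measures of the same lines, and the summed counts hold all of them. Among the transducers both tools called 0 on each day, with up to 4 at an unadjusted p under 0.05.

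Markers of the cell states moved beside the ligands. Naive stem cell markers summed to 2365 to 2567 CPM at day 0, 835 to 1076 CPM at day 2, 683 to 1005 CPM at day 2.5 and 303 to 555 CPM at day 3. In the first step 8 of 8 fell in both genotypes. In the step to day 2.5, in which Fgf4 fell most, 1 rose and 0 fell of 8 tested in wt and 2 rose and 2 fell of 7 tested in het. In the step to day 3, in which Fgf4 rose, 1 rose and 2 fell in wt and 1 rose and 1 fell in het. Markers of formative or primed epiblast, Dnmt3b among them, summed to 1420 to 1673 CPM at day 0, 1829 to 2100 CPM at day 2, 572 to 812 CPM at day 2.5 and 249 to 450.1 CPM at day 3. Of these 5, 4 rose in wt and 5 in het in the first step, in which Fgf5 was not called. All 5 fell in both genotypes in the step to day 2.5, in which Fgf5 fell. Of the 8 NMP markers, 7 rose and Sox2 fell in that step in both genotypes, the first step in which Fgf8 rose. In the step to day 3, in which Fgf8 rose again, 2 NMP markers rose and 3 fell in wt and 1 rose and 2 fell in het, with median log2 fold changes of -0.42 and -0.40. Markers of other cell types moved in these steps too. Paraxial mesoderm markers rose in 3 of 4 tested in the step to day 3 in both genotypes (medians 3.21 and 2.61), from a summed level of 3.61 to 8.35 CPM at day 2.5 to 17.4 to 61.3 CPM at day 3. Endoderm markers rose in 6 of 9 in the first step in both genotypes, and in the step to day 2.5 they rose in 7 of 9 in het (5 by DESeq2) and 0 of 9 in wt, where 1 had an unadjusted p under 0.05 by edgeR and DESeq2 called 0. All 9 interactions of endoderm markers at that step were above 0 (median 0.62), and edgeR called 0 of them, with 1 at an unadjusted p under 0.05 and 0 by DESeq2. Neural markers rose in 3 of 4 in the first step in both genotypes, and in the next 3 fell in wt, while 2 fell and 1 rose in het. The part of any change in the mix of cells in the ligand values was not tested.

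The genes most like each ligand over the 24 libraries were found by Pearson's r of log2 CPM among 13622 candidates, as a description, since the libraries share lines and days. For Fgf4 they were Baz2a (0.979), Esrp1 (0.963) and Kdm3a (0.961), and for Fgf5 Pcyt1b (0.967) and Enpp3 (0.961). For Fgf8 they were Colec12 (0.965), Gm45889 (0.948) and Gm28308 (0.946), and for Fgf17 Gprc5a (0.935), Epha4 (0.909) and Loxl4 (0.898). Those of Fgf15 were Fn1 (0.874), AW551984 (0.869) and Rnf213 (0.867), and Fgf3 had the weakest, Ptges3l (0.798), Arhgap1 (0.788) and Zfp407 (0.772). Fgf18 had too few counts for this. Among the ligands, r was 0.769 between the neighbours Fgf4 and Fgf15 but -0.0525 between the neighbours Fgf3 and Fgf4, and it was -0.865 between Fgf5 and Fgf8 and 0.377 between Fgf8 and Fgf17.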

How the data were processed

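The authors sequenced 75-base single-end reads of 24 libraries (3 wt and 3 het lines on 4 days), prepared with a TruSeq kit of which both a stranded and a non-stranded form are named. They trimmed them with Trim Galore 0.4.4, aligned them to GRCm38.p6 with HISAT2 2.0.5 and deposited raw read counts per gene, made in SeqMonk. How overlapping genes and strand were counted is not given in the sources used here. The authors also deposited log2 RPKM values of selected genes, of which Fgf8 was read here, with 3 libraries without a read listed at negative values. The 8 columns of group means were not used, and 0 sample columns were left unmatched.

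All tests used the counts. CPM were scaled by TMM factors, and RPKM used merged exon lengths of GENCODE vM21. Genes passing filterByExpr in a comparison were tested with edgeR 4.0.16 in R 4.3.3 by its quasi-likelihood test, with Benjamini-Hochberg adjustment over all tested genes, and were called at an adjusted p under 0.05. In this text "higher", "lower", "rose" and "fell" used of a test mean called genes. There were 14 comparisons: het against wt on each day and on counts summed over days, 3 steps between days in each genotype, and 3 interactions. The scripts were tested on simulated data. The alternatives were the Wald test of DESeq2 1.42.0, edgeR with that tool's size factors or with library totals, a filter at 1 count, a joint fit of the 24 libraries, a replicate block and the removal of each line in turn.

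Steps within a genotype compare the same lines, so the number pairs them by origin, although deviations from the group means correlated at only -0.00414 to 0.0971. For het against wt the same number marks different lines. P-values measure the spread between lines. Genes most like a ligand were sought where a group's mean reached 50 counts, by Pearson's r of log2 CPM with a prior count of 2, and the 3 with the highest r were named. The 7 ligands were all described, in every comparison, and other pathway genes were named as the 3 largest called changes per list and step, with exceptions chosen after their values were seen. Some genes that these rules select are not reported here. The ligands and lists were chosen with earlier results of these data known. Library totals of 7102655 to 20818018 counts set the precision, and intervals of counts cover counting error only. Plots came from matplotlib 3.10.9 under Python 3.11.15.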

Additional observations from a re-analysis of the deposited data

How the results depend on the processing

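Of the counts of called ligands in the 14 comparisons, all but those named here stayed within 1.5 times the reported count under every alternative. For het against wt on counts summed over days, DESeq2 called 1 ligand in place of 0, and leaving out each line gave 0 to 1. Leaving out each line gave 2 to 4 called ligands for wt day 2 against day 0, and 1 to 5 for wt day 3 against day 2.5. In the het against wt comparisons the line number as a replicate block gave 0 called ligands each, as in the fits without it, and same-numbered lines of the genotypes deviated from their group means with correlations of -0.032 to 0.0133, so they share only a number. With the block as a pairing of days, 4, 4 and 5 ligands were called over the wt steps and 5, 4 and 4 over the het steps, and the single calls that changed are given with each gene. In the joint fit 6 ligands were called for het day 2.5 against day 2, the additional one being Fgf18. The cause of these changes was not tested. Over all genes, het against wt gave 0, 85, 0, 1 and 1 called genes on the 4 days and on summed counts. DESeq2 gave 83, 213, 3, 107 and 134, no filter beyond 1 count 369, 384, 87, 274 and 190.0, the block 25, 97, 0, 100.0 and 50, and the joint fit 1, 23, 1 and 15 on the 4 days. Leaving out a line gave 0 to 68, 0 to 211, 0 to 3, 0 to 93 and 0 to 404. The 3 interactions gave 0 genes, but 58, 33 and 23 with no filter beyond 1 count, 10 by DESeq2 and 2 with the block at the first step, and up to 2 without a line. Wt day 3 against day 2.5 went from 2923 genes to 4687 with the block and to 29 to 3098 without a line. Leaving out a line gave 4152 to 6363 in place of 6869 for the first wt step, 2249 to 3875 in place of 4519 for the second, and 2386 to 3032 in place of 4710 for the last het step.

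Some values that were not called in the reported fits changed sign. With the replicate block, Fgf5 had log2 fold changes of -0.042 for wt day 2 against day 0 and 0.0037 for its interaction at that step, and the interactions at the step to day 3 were -0.20 for Fgf8 and -0.021 for Fgf17. DESeq2 gave -0.037 for that of Fgf8, and library totals alone gave 0.022 for Fgf5 in het day 2 against day 0. Leaving out each line, het against wt ranged on day 0 from -0.051 to 0.036 for Fgf4 and from -0.0091 to 0.20 for Fgf5, and on day 2 from -0.18 to 0.38 for Fgf5. On day 2.5 it ranged from -0.26 to 0.12 for Fgf5, from -0.28 to 1.00 for Fgf8 and from -0.054 to 0.74 for Fgf17, and on day 3 from -0.26 to 0.25 for Fgf8 and from -0.060 to 0.51 for Fgf17. On summed counts it ranged from -0.20 to 0.20 for Fgf5, from -0.10 to 0.49 for Fgf8, from -0.26 to 0.20 for Fgf17 and from -0.078 to 0.17 for Fgf18. The first step ranged for Fgf5 from -0.18 to 0.16 in wt and from -0.17 to 0.068 in het, and the step to day 3 for Fgf3 in wt from -0.035 to 0.51. Interactions at the first step ranged from -0.25 to 0.47 for Fgf3, from -0.0016 to 0.27 for Fgf4, from -0.19 to 0.14 for Fgf5 and from -0.53 to 0.25 for Fgf17. Those at the step to day 2.5 ranged from -0.46 to 0.22 for Fgf5 and from -1.35 to 1.93 for Fgf8, and those at the step to day 3 from -0.31 to 0.66 for Fgf4, from -0.76 to 0.23 for Fgf8 and from -0.23 to 0.23 for Fgf17. With 3 lines a genotype and 0 to 23 counts a library, Fgf18 was the least precise, and Fgf8 before day 2.5 was likewise near the floor.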
